A study of Rattus norvegicus with 8 samples.

Results

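The interferon regulatory factor (IRF) genes Irf1, Irf2, Irf3, Irf5, Irf7, Irf8 and Irf9 were read through every probe set annotated to exactly 1 of them. This gave 10 probe sets (3 for Irf2, 2 for Irf9 and 1 for each of the others) for 7 genes, out of 31042 probe sets and 14217 genes with a probe set of 1 symbol.

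IRFs are transcription factors that bind a DNA element built on the core GAAA, found in the promoters of interferons and of the genes that interferons induce. IRF3 and IRF7 lie in the cytoplasm until kinases downstream of pathogen sensors phosphorylate them, and then switch on interferon genes. IRF9 is the DNA-binding subunit of ISGF3, the complex that carries the signal of type I interferon, whereas IRF1 is made on demand and drives genes of antigen presentation, and IRF2 competes with it for the same sites. IRF5 acts downstream of Toll-like receptors, and IRF8 is best known for directing the development of macrophages and dendritic cells.

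Irf transcripts were followed in primary cultures of chondrocytes, the cells of cartilage, taken from the femoral condyles of newborn Sprague Dawley rats and grown in monolayer. All cultures were serum starved overnight, pretreated for 30 minutes with DMSO, the solvent, or with U0126, an inhibitor of the kinases MEK1/2 that activate ERK1/2, and then given BSA vehicle or 30 ng/ml TNFα for 24 h, which gave 4 treatments (DMSO, U0126, TNFα, and U0126 with TNFα). Each treatment was run in 2 independent experiments, labelled as biological replicates 1 and 2, with a single-colour array (Affymetrix RAT230_2.0) for each culture, 8 in all. How many rats went into a culture is not given in the sources used here. Values are intensities on a linear scale, centred on the array median. No detection calls were used, so a dim probe set is not known to lie above background, and levels of different probe sets are not set against each other.

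The upstream sequences of the genes whose transcripts moved are shown first, because TNFα is known to act on promoters through NF-κB and interferons through STAT proteins. RefSeq gives an upstream sequence for 6 of the 7 genes on build GRCr8, with no entry for Irf2. The 250 bases before the start of Irf1 (chr10:38417685-38417934, plus strand) and of Irf8 (chr19:65699034-65699283, plus strand) are printed 5′ to 3′, with capitals where a searched motif was matched.
Irf1: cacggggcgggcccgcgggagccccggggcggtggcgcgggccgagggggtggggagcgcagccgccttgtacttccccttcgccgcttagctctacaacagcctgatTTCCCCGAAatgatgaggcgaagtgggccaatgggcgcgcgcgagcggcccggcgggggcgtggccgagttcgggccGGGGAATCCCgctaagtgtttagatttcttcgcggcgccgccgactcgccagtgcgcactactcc
Irf8: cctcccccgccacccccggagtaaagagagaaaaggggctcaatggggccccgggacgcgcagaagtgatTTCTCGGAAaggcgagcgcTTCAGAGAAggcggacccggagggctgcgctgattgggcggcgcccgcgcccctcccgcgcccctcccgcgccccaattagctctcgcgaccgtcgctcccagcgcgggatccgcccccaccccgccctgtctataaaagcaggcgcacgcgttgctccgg
The capitals in Irf1 are a match to the STAT site TTCNNNGAA, 142 to 134 bases before the start, and, nearer the gene, a match to the NF-κB consensus, GGGGAATCCC, 65 to 56 bases before it. The capitals in Irf8 are a pair of STAT sites, TTCTCGGAA and TTCAGAGAA, that begin 180 and 161 bases before the start. Elsewhere, Irf9 held the STAT match TTCTAGGAA, Irf3 an NF-κB match, GGAAAGTCCC, and Irf7 a match to paired IRF core sites (GAAA, any 2 bases, GAAA), read on the other strand as TTTCATTTTC, while Irf5 held none. Both strands were searched, and matches did not overlap. STAT sites stood in 3 of these 6 sequences and in 7.67% of the 33469 windows of the same length before all gene starts, NF-κB matches in 2 of 6 and 3.54%, and paired IRF core sites in 1 of 6 and 3.41%. A match describes letters in a window and is not a measured binding site. Of the genes that did not pass the test for TNFα, Irf3, Irf7 and Irf9 held matches and Irf5 held none. Any link between matches and responses was not tested.

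**Figure D1:**
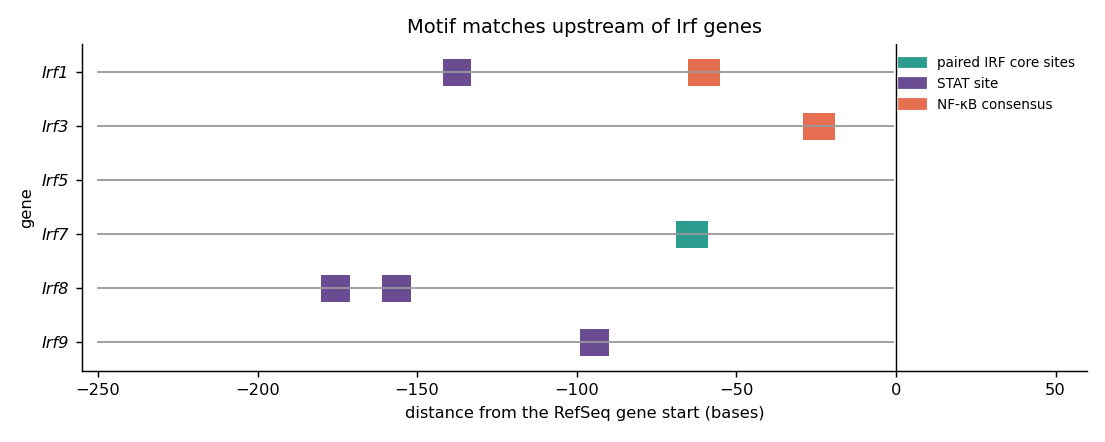
Motif matches in the 250 bases before the RefSeq start of the 6 Irf genes with an entry. The horizontal axis is the distance from the gene start in bases, each line is 1 gene, and coloured blocks are matches on either strand. Irf1 carries a STAT site and an NF-κB match, Irf8 carries STAT sites only, and Irf5 has no match.

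Whether TNFα changes Irf transcripts in chondrocytes was asked first. Irf1 rose by 3.24-fold and Irf8 by 3.54-fold, and 1 of the 3 Irf2 probe sets rose by 1.93-fold, while Irf3, Irf7 and Irf9 did not pass the limma test and Irf5 missed it narrowly. In all, 3 of 10 Irf probe sets were called higher at an adjusted p under 0.05 and 0 lower, beside 3.41% called higher and 1.78% called lower among all 31042 probe sets. At an unadjusted p under 0.05 the Irf count was 4 of 10, beside 25.9% of all probe sets. The same 3 passed the fold rule of the study, under which both experiments have to reach 1.45-fold the same way, and which 1.65% of all probe sets passed upward. The median log2 fold change was 0.27 over the Irf probe sets and -0.02 over all probe sets. The arrays measured whole cultures, so more transcript per cell and more cells of an expressing type cannot be told apart.

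Irf1, the factor that many inflammatory stimuli induce within cells, stood at intensities of 1072 and 1625 with DMSO in experiments 1 and 2 and at 3719 and 4911 with TNFα. It stood at 1270 and 2035 with U0126 and at 4001 and 5748 with U0126 and TNFα. All 4 arrays with TNFα were above all 4 without, and experiment 2 was the higher one in each treatment. Over DMSO of its own experiment, Irf1 under TNFα was 3.47-fold and 3.02-fold higher (log2 fold change 1.70 with SE 0.08, limma adjusted p = 0.000321). The order of the treatments was DMSO, U0126, TNFα, U0126 with TNFα in both experiments. The steps from DMSO to U0126 (1.22-fold, adjusted p = 0.278) and from TNFα to U0126 with TNFα (1.12-fold, adjusted p = 0.453) did not pass the test. The call for TNFα also passed with each array left out in turn, but where that left 1 DMSO or 1 TNFα array, the lone array was assumed to vary like the other groups. It did not pass in a fit with no term for the experiment (adjusted p = 0.209), in which no Irf probe set was called for TNFα with or without U0126.

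Irf8 read 155.2 and 160.1 in DMSO and 125.0 and 141.3 under U0126. Under TNFα it read 400.2 in experiment 1 and 777.0 in experiment 2, and under both agents 315.0 and 518.5. The groups with and without TNFα did not overlap, and the experiments, which lay close together without TNFα, were apart with it. The fold was therefore larger in experiment 2, at 4.85-fold, than in experiment 1, at 2.58-fold (log2 fold change 1.82 with SE 0.21, limma adjusted p = 0.00659). Irf8 was lowest with U0126 and highest with TNFα in both experiments. Its neighbours in that order, U0126 and DMSO (0.84-fold, adjusted p = 0.619) and U0126 with TNFα and TNFα (0.72-fold, adjusted p = 0.424), did not differ beyond their spread.

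Because IRF8 is made in macrophages, their markers were read beside it. Of 12 measured macrophage markers, 1 rose with TNFα, 0 fell and 11 did not pass the test, and the list's median log2 fold change was -0.11. The gene that rose was Cd68, a lysosomal glycoprotein, at 1.80-fold, from 215.7 and 433.8 with DMSO to 472.2 and 641.0. With U0126 it stood at 222.0 and 428.9, and under both agents at 244.8 and 493.4. That was 1.13-fold over U0126 without passing (limma adjusted p = 0.686). Ptprc, which encodes the leukocyte antigen CD45, lay between 60.6 and 69.7 on all 8 arrays, and Csf1r, the receptor for the macrophage growth factor, between 167.7 and 243.7, with TNFα over DMSO at -0.03 and -0.09 on the log2 scale. The summed intensity of the list came to 4244 and 5775 in DMSO, 4251 and 5171 under U0126, 4772 and 6030 under TNFα, and 4030 and 4987 under both agents. It was thus higher in experiment 2 in every treatment, and so were 6 of the 12 markers, beside 22.3% of all probe sets. Among them Adgre1, a surface receptor of macrophages, stood at 30.0 and 201.4 with DMSO and at 35.4 and 340.4 with TNFα. It stood at 33.9 and 146.2 with U0126 and at 37.1 and 143.5 under both agents. TNFα over DMSO did not pass for Adgre1 (limma adjusted p = 0.311). The part of such cells in the Irf8 values was not tested. Of 8 lymphocyte and 5 endothelial markers, 0 passed limma's test for TNFα. At an unadjusted p under 0.05 stood 3 of 12 macrophage markers (Cd68, Cd14 at 1.33-fold and Cd163 at 0.88-fold), 3 of 8 lymphocyte and 2 of 5 endothelial markers, beside 25.9% of all probe sets. Among cartilage markers, Col2a1, the main collagen of cartilage, lay between 24280 and 32100 and Acan, the aggrecan core protein, between 7741 and 23390. All 8 measured cartilage markers were lower in experiment 2 in every treatment, as were 8466 of all 31042 probe sets. Of these 8 markers, 5 fell with TNFα, Acan among them, and 3, Col2a1 among them, did not pass. The study's own real-time PCR found Col2a1 reduced by TNFα, so the missed threshold here does not show that Col2a1 was unchanged. At the adjusted threshold of these marker counts, 3.41% of all probe sets were called higher with TNFα and 1.78% lower.

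Irf2, the constitutive antagonist of IRF1, gave different answers from its 3 probe sets. Probe set 1398561_at read 813.9 and 1100 in DMSO, 788.8 and 1061 under U0126, 1805 and 1847 under TNFα, and 1307 and 1479 under both agents. The 4 arrays with TNFα were again above the 4 without. It rose with TNFα by 2.22-fold and 1.68-fold (log2 fold change 0.95 with SE 0.11, limma adjusted p = 0.00640), a call that was lost without the DMSO array of experiment 1 (adjusted p = 0.0512). The second probe set (1382503_at) lay between 260.5 and 333.1 throughout, where TNFα over DMSO came to 1.13-fold and 1.07-fold (adjusted p = 0.222), and still had all arrays with TNFα above all without. The third (1386518_at) lay between 71.5 and 120.9 and was at 1.41-fold and 0.94-fold in the experiments (adjusted p = 0.382). A rise of Irf2 therefore rests on 1 of its 3 probe sets, and which transcripts each one reads was not examined.

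Irf5 was a near miss. It read 365.5 and 385.4 in DMSO, 334.0 and 371.4 under U0126, 454.2 and 494.8 under TNFα, and 408.4 and 511.7 under both agents. The arrays with TNFα were all above those without, at a small distance, and the folds over DMSO were 1.24 and 1.28 (log2 fold change 0.34 with SE 0.08, limma adjusted p = 0.0557). With no centring of the arrays, or without the dimmest 40% of probe sets, Irf5 came just under the threshold (adjusted p = 0.0496 and 0.0493). It stayed above with quantile normalization (adjusted p = 0.0587), a trended, robust prior variance (0.0580) or no term for the experiment (0.444). Over the family, 5 of 10 probe sets, those of Irf1, Irf5 and Irf8 and 2 of Irf2, had every array with TNFα above every array without, as did 3.72% of all probe sets.

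The factors that await phosphorylation, Irf3 and Irf7, and the ISGF3 subunit Irf9 did not pass the test for TNFα. Irf3 lay between 1158 and 1898, where TNFα over DMSO came to 1.24-fold and 1.03-fold (adjusted p = 0.213). The Irf9 probe sets lay between 514.4 and 814.7 and between 916.5 and 1265, at 1.12-fold (adjusted p = 0.359) and 1.05-fold (adjusted p = 0.675). Their groups with and without TNFα overlapped. Irf7, itself a gene that interferon induces, was higher in experiment 2 in each treatment. It read 435.3 and 728.2 in DMSO, 472.5 and 1400 under U0126, 614.3 and 899.4 under TNFα, and 648.2 and 1301 under both agents. TNFα over DMSO was at 1.41-fold and 1.24-fold (adjusted p = 0.277), with a 95% interval of the log2 fold change from -0.11 to 0.91. The highest array of Irf7 was thus U0126 alone in experiment 2, where U0126 was at 1.92-fold of DMSO against 1.09-fold in experiment 1 (adjusted p = 0.363). The interferon-induced genes Mx1 and Isg15, chosen after their values were seen, were also highest on the U0126 arrays of experiment 2. Mx1, an antiviral GTPase, read 248.6 under U0126 and 282.1 under both agents there, against 42.0 to 70.9 on the other 6 arrays. Isg15, a ubiquitin-like protein, read 1095 and 1027 there, against 320.8 to 620.7 on the other 6. Not every such gene followed. In experiment 2, Ifit1 read 480.6 under U0126 and 449.8 under both agents, against 487.1 in DMSO. Eif2ak2 read 996.9 and 1019 there, against 1026 under TNFα. How many genes of the list share the pattern of Mx1 and Isg15 was not counted, and its part in the Irf7 values was not tested. Levels were higher in experiment 2 in all 4 treatments for 8 of the 10 Irf probe sets, as for 22.3% of all probe sets.

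**Figure D2:**
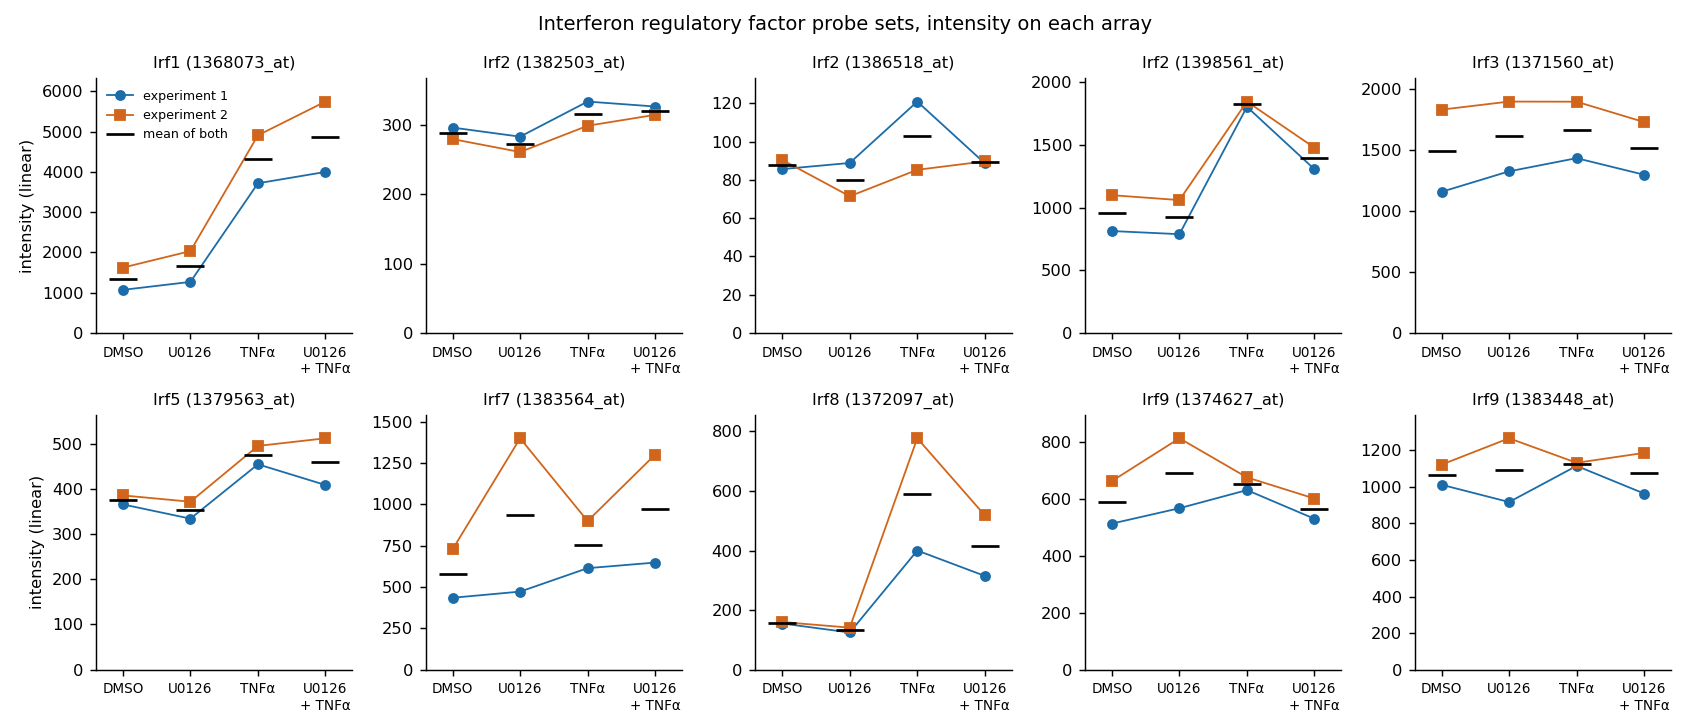
Intensity (linear scale, from 0, a separate axis for each panel) of the 10 Irf probe sets on each of the 8 arrays, by treatment. Circles are experiment 1, squares experiment 2 and short bars their mean, with n = 2 and no error bar. Irf1, Irf8 and the Irf2 probe set 1398561_at step up where TNFα was given, and Irf7 separates by experiment.

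Whether the Irf response needs MEK1/2 was asked by comparing TNFα with and without U0126. Irf1 and Irf8 still rose when U0126 was present, by 2.98-fold and 3.04-fold over U0126 alone, and these 2 of the 10 Irf probe sets were called higher and 0 lower, beside 0.831% higher and 0.406% lower among all probe sets (at an unadjusted p under 0.05, 6 of 10 Irf probe sets beside 12.5% of all). The median log2 fold change was 0.21 over the Irf probe sets and -0.0066 over all. The Irf2 probe set that rose with TNFα was at 1.52-fold without passing. The fold rule also passed Irf1 and Irf8, at 0.905% of all probe sets upward. Irf1 was 3.15-fold and 2.82-fold higher in experiments 1 and 2 (log2 fold change 1.58 with SE 0.08, limma adjusted p = 0.000874). Irf8 was 2.52-fold and 3.67-fold higher (log2 fold change 1.61 with SE 0.21, limma adjusted p = 0.0222), but its call was lost without either U0126 array (adjusted p = 0.137 and 0.167 for experiments 1 and 2) or either array of U0126 with TNFα (0.125 and 0.209). The Irf2 probe set reached 1.66-fold and 1.39-fold (adjusted p = 0.0604), above the study's fold in experiment 1 and below it in experiment 2. With no centring and with a trended, robust prior variance, its adjusted p was 0.0495 and 0.0441. It did not pass with quantile normalization, without the dimmest 40% of probe sets or with no term for the experiment. Irf5 came to 1.22-fold and 1.38-fold (adjusted p = 0.0878), and the Irf9 probe set 1374627_at to 0.93-fold and 0.74-fold (adjusted p = 0.365).

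The responses with and without U0126 were then set against each other directly. In limma's test of their difference, 0 of 10 Irf probe sets and 0 of all 31042 passed, with 1 of 10 and 2833 (9.13% of all) at an unadjusted p under 0.05. The log2 response with U0126 minus that without was -0.12 for Irf1 (95% interval -0.39 to 0.15) and -0.22 for Irf8 (-0.92 to 0.49). For Irf2 it was -0.34 (-0.71 to 0.02, adjusted p = 0.556). These intervals hold both a smaller and a larger response under U0126, so a p that missed the threshold does not show equal responses. The Irf probe set at an unadjusted p under 0.05 was 1374627_at of Irf9 (log2 difference -0.43, 95% interval -0.78 to -0.08, adjusted p = 0.529), while the other Irf9 probe set was at -0.09 (-0.44 to 0.27).

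U0126 by itself left no Irf probe set past the test. Over DMSO, 0 of 10 were called, beside 0.058% of all probe sets, with 2 of 10 at an unadjusted p under 0.05, Irf1 (1.19-fold and 1.25-fold) and Irf7, a share near the 13.3% of all probe sets. Over TNFα alone, U0126 with TNFα gave 0 of 10, beside 0.254% of all, with 1 of 10 at an unadjusted p under 0.05, a share near the 12.7% of all. That one was the Irf2 probe set 1398561_at, which was at 0.72-fold and 0.80-fold (adjusted p = 0.224). Neither comparison took an Irf probe set past the fold rule, beside 0.29% and 0.763% of all probe sets. These comparisons share arrays with those above and are not independent of them.

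**Figure D3:**
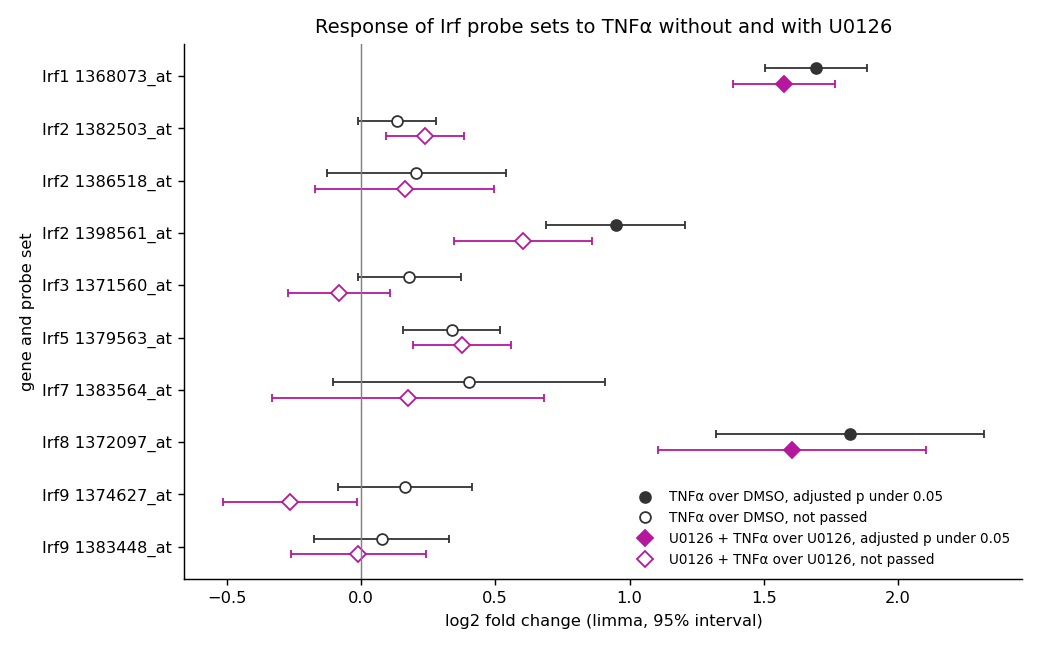
Log2 fold change of each Irf probe set (limma, all 8 arrays, experiment as a block) for TNFα over DMSO (circles) and U0126 with TNFα over U0126 (diamonds). Bars are 95% intervals, and filled points passed an adjusted p of 0.05. Irf1 and Irf8 lie at 1.70 and 1.82 without U0126 and at 1.58 and 1.61 with it, and the Irf2 probe set 1398561_at is filled only without it.

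Genes around the IRFs were read from lists by role. Of 77 measured genes, 27 rose with TNFα, 0 fell and 50 did not pass, beside 3.41% higher and 1.78% lower among all probe sets. The median log2 fold change was 0.27, against -0.02 over all, and 15 were called without the DMSO array of experiment 1. Of the interferons themselves, Ifnb1 read 106.8 and 115.0 in DMSO and 110.1 and 109.4 under TNFα, and Ifng 28.6 and 30.6 and then 28.8 and 26.2, with neither passing (adjusted p = 0.905 and 0.415). Of 8 measured ligands and receptors, 4 were called, Ifngr1 and Ifngr2, the chains of the interferon γ receptor, at 1.97-fold and 1.70-fold, and Ifnar1 and Ifnar2, those of the type I receptor, at 1.49-fold and 1.45-fold. With U0126 present, Ifngr1 and Ifngr2 still passed, at 1.45-fold and 1.62-fold over U0126 alone, beside 0.831% called higher among all probe sets. The type I receptor chains were at 1.18-fold and 1.17-fold without passing. Ifngr1 was lower under both agents than under TNFα alone (log2 fold change -0.50 with SE 0.06, limma adjusted p = 0.0394), as 1 of the 77 genes. In that comparison 0.254% of all probe sets were called in either direction.

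Among the kinases and STATs behind those receptors, 1 of 5 rose, beside 3.41% called higher among all probe sets. Jak2, the kinase bound to the interferon γ receptor, rose by 3.77-fold, from 785.4 and 480.7 to 3926 and 1366, and was at 2.23-fold over U0126 without passing (adjusted p = 0.104). Tyk2, Stat2 and Stat3 were at 1.20-fold, 1.36-fold and 1.20-fold (adjusted p = 0.0881 to 0.113). Of 17 sensors, adaptors and kinases that act on IRF proteins, 3 rose, beside the same 3.41%. Tank and Traf3, adaptors of the kinase TBK1, rose by 2.59-fold and 1.71-fold and still passed over U0126, at 1.68-fold and 1.70-fold. Over U0126, 0.831% of all probe sets were called higher. Tlr2, a receptor for bacterial lipoproteins, rose by 9.73-fold and 2.78-fold in the experiments and did not pass over U0126 (adjusted p = 0.219). Tbk1 itself was at a log2 fold change of 0.28 (adjusted p = 0.0749). Of 8 partners and brakes of IRF or interferon signalling, 0 passed limma's test (1 at an unadjusted p under 0.05, beside 25.9% of all probe sets). Socs3, a feedback inhibitor of cytokine receptors, reached 2.16-fold and 1.23-fold (adjusted p = 0.110), and the IRF2-binding corepressors Irf2bp1, Irf2bp2 and Irf2bpl were at log2 fold changes of -0.08, 0.04 and 0.16.

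Genes known to be induced through IRF1 or ISGF3 moved unevenly. Of 39 measured, 19 rose with TNFα, 0 fell and 20 did not pass, beside 3.41% higher among all probe sets, with a median log2 fold change of 0.64. Over U0126 alone, 12 of the 39 rose with TNFα and 0 fell, beside 0.831% higher and 0.406% lower among all. Cxcl11, a T cell chemokine, rose by 4.46-fold and 4.67-fold, and Psmb9, an inducible subunit of the proteasome, by 5.95-fold and 4.50-fold. Psmb10, another such subunit, and Psme2, a proteasome activator, rose by 2.68-fold and 1.96-fold. With U0126 present, Cxcl11, Psmb9, Cxcl10 and the peptide transporter Tap1 rose by 3.71-fold, 3.49-fold, 3.66-fold and 1.84-fold over U0126. When the list was split by function after its values were seen, 8 of 9 genes of peptide loading and the proteasome rose with TNFα, by 1.90-fold to 5.18-fold, and 8 rose over U0126. The ninth, B2m, the light chain of MHC class I, was at 1.61-fold (adjusted p = 0.0616). Of 13 antiviral effectors of the type I response, 3 rose with TNFα, Ifit2, Ifi44l and Eif2ak2, and 0 over U0126. The other 10 effectors lay between 0.84-fold and 1.73-fold, with Ifi44 the highest of them (limma adjusted p = 0.171). The split left out the other genes of the list. Among those, Gbp2, Igtp, Ifi35, Parp9, Parp14, Dtx3l, Cxcl10 and Cxcl11 also rose with TNFα. Gbp2, Parp14, Cxcl10 and Cxcl11 rose over U0126 as well.

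**Figure D4:**
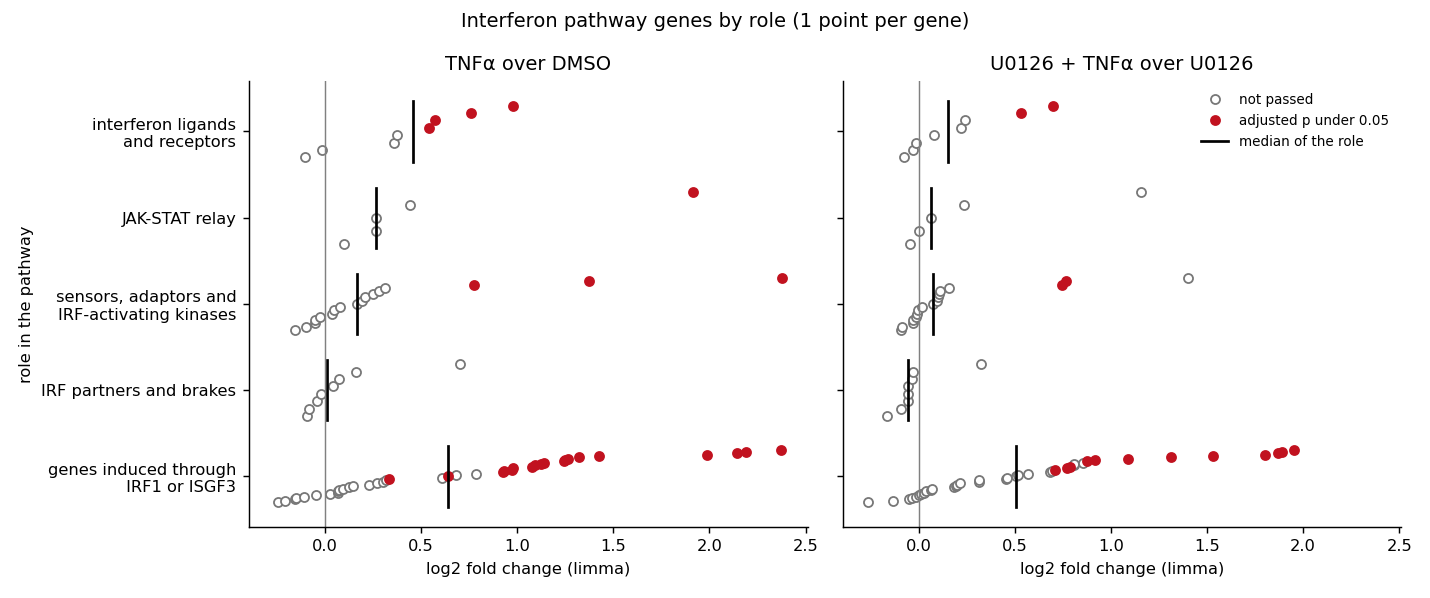
Log2 fold change (limma) of the 77 measured genes around the IRFs, 1 point per gene, for TNFα over DMSO (left) and U0126 with TNFα over U0126 (right), on the same axis. Filled points passed an adjusted p of 0.05 and vertical lines are the median of a role. The filled points all lie above 0, 27 on the left and 16 on the right, most of them among the induced genes.

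Genes with a course over the 8 arrays most like that of each called Irf probe set were found by the root mean square difference of log2 values, after the mean of each experiment was removed, among 14210 other genes. For Irf1, whose own values had a root mean square of 0.83, the nearest were Relb, a subunit of NF-κB, Ripk2, a kinase of the NOD receptors, and Psmb10, at differences of 0.15, 0.15 and 0.17. For Irf8 (0.90) they were the adaptor Stap2, Strip2 and Cxcl11, at 0.12, 0.22 and 0.24. For the Irf2 probe set (0.42) they were the ubiquitin ligase Znrf1, the nuclear receptor coactivator Pnrc1 and the actin-capping protein Capg, at 0.03, 0.05 and 0.06. TNFα over DMSO was at 3.55-fold for Relb and 3.15-fold for Ripk2, and U0126 with TNFα over U0126 at 3.02-fold and 2.77-fold, close to the values of Irf1. That closeness follows from the way the genes were picked, since the same values give the folds. This is a ranking of likeness over 8 arrays and carries no test.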

How the data were processed

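Total RNA of each culture was hybridized to 1 array. The deposited table gives each probe set a linear intensity on every array. The submitters' notes name RMA as the tool, while the methods describe GeneSpring values divided by the chip median and by DMSO. Neither division is present, since array medians lie between 365.1 and 378.2. Log2 values were therefore centred on the array median and brought back to a linear scale for printing. Precision is limited by the 2 arrays per treatment. The p values measure how treatment effects varied between the 2 experiments, once the gap between experiments was removed. That spread is drawn in part from all probe sets. The 57 control probe sets were left out.

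A linear model with treatment and experiment as terms was fitted to the 8 arrays (limma 3.58.1, R 4.3.3, residual degrees of freedom 3, prior 3.913). Replicate numbers were taken as experiments, as in the methods, and after treatment means were removed, same-numbered arrays correlated at 0.728 to 0.829. In each of 5 comparisons, p values of 31042 probe sets were adjusted together (Benjamini-Hochberg) and read against 0.05. The fit was also run on data simulated from the model's own assumptions, which cannot test whether they hold here. Where 1 fold is given, it is the geometric mean over the experiments. Probe sets were named from the platform annotation of 2016, and genes of the lists were given by their brightest probe set. The rule for named genes takes every Irf probe set and up to 4 genes of the smallest adjusted p per role. It also takes 3 genes most like each called Irf probe set, with Cd68, Ptprc, Csf1r, Col2a1 and Acan as defining cell type markers. Adgre1, Cd14, Cd163, B2m, Tbk1, Irf2bp2, Ifit2, Ifi44, Ifi44l, Eif2ak2, Mx1, Isg15, Ifnb1 and Ifng were named after their values were seen. So were Gbp2, Igtp, Ifi35, Parp9, Parp14, Dtx3l and Ifit1. The Irf genes and lists were chosen with earlier results of these data known.

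Quantile normalization, no centring, a filter on dim probe sets, another prior variance, no replicate block, leaving out each array, other fold thresholds and another choice of probe set were tried as alternatives.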

Additional observations from a re-analysis of the deposited data

How the results depend on the processing

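Without a replicate block (treatment as the only term), 0 Irf probe sets were called for TNFα over DMSO and 0 for U0126 with TNFα over U0126, and 2 of the 77 pathway genes were called for TNFα, where the fit with the experiment as a block gave 3, 2 and 27; over all probe sets it called 25 and 5. That fit counts the gap between experiments as spread. Leaving out 1 array, which leaves a treatment with 1 array that is assumed to vary like the others, gave 2 to 3 Irf calls for TNFα over DMSO, 1 to 3 for U0126 with TNFα over U0126 (1 without each U0126 array and each array of U0126 with TNFα) and 15 to 29 pathway genes (15 without DMSO of experiment 1). Every other count of Irf probe sets or pathway genes stayed within 1.5 times its value under every alternative run. The log2 fold changes of Irf1, Irf8 and the Irf2 probe set 1398561_at for TNFα kept their sign throughout, at 1.60 to 1.80, 1.501 to 2.145 and 0.79 to 1.11 with 1 array left out.

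Signs turned only for values that had not passed the test. With quantile normalization, Irf9 1383448_at went to -0.0054 for TNFα over DMSO and -0.041 for U0126 over DMSO. With 1 array left out, these log2 ranges crossed 0. For TNFα over DMSO they were -0.0089 to 0.42 (Irf2 1386518_at) and -0.065 to 0.22 (Irf9 1383448_at). For U0126 over DMSO they were -0.32 to 0.029 (Irf2 1386518_at), -0.16 to 0.062 (Irf2 1398561_at), -0.53 to 0.040 (Irf8) and -0.14 to 0.17 (Irf9 1383448_at). For U0126 with TNFα over U0126 they were -0.23 to 0.58 (Irf7) and -0.16 to 0.14 (Irf9 1383448_at). For U0126 with TNFα over TNFα they were -0.016 to 0.059 (Irf2 1382503_at), -0.40 to 0.028 (Irf2 1386518_at), -0.16 to 0.051 (Irf5) and -0.21 to 0.071 (Irf9 1383448_at). For the difference of the responses they were -0.26 to 0.17 (Irf2 1386518_at), -0.064 to 0.14 (Irf5), -0.63 to 0.17 (Irf7), -0.54 to 0.10 (Irf8) and -0.24 to 0.067 (Irf9 1383448_at). Without the dimmest 40% of probe sets, 9 of the 10 Irf probe sets were tested.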
